A study of Mus musculus with 3 samples.

Results

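Genes of MHC class I and class II antigen presentation were followed in mammary epithelial cells of the mouse. The set holds 10 of the 19050 genes in the tables and was chosen by gene symbol: 7 genes of the class I route (B2m, H2-K1, H2-D1, Tap1, Tap2, Psmb8 and Psmb9) and 3 class II genes (Cd74, H2-Aa and H2-Ab1). All 10 were found in the tables. Cells came from 1 untreated group: per the labels of each library, the number 4 mammary glands were taken from 10-week-old FVB/NJ females, pooled from 4 animals and digested, and live epithelial cells were sorted after staining for CD49f, EpCAM, CD31, CD45 and Ter119. They were profiled in 3 libraries by the droplet-based 10x Genomics 3' v2 method, in which each captured transcript carries a unique molecular identifier (UMI). The protocol text is the same for every library, so whether the libraries share 1 pool of animals or come from separate pools is not known, and the p-values measure only the spread between libraries, which may be technical.

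The libraries held 6691, 9034 and 11120 barcodes with 18584156, 27220670 and 30984706 UMIs, and 26320 barcodes passed the filters (500 or more genes detected, less than 10% of UMIs mitochondrial). A kept barcode was placed in a class when its UMIs of Krt5, Krt14 and Acta2 (basal), of Csn3, Elf5, Kit and Aldh1a3 (luminal progenitor) or of Prlr, Areg, Pgr and Esr1 (hormone-responsive) reached at least 5 in sum and at least 3 times either of the other sums. In libraries 1, 2 and 3 this gave 357, 999 and 1254 hormone-responsive-like cells, 3239, 1651 and 3301 luminal progenitor-like cells and 1572, 4782 and 4369 basal-like cells, and it left 4796 barcodes without a class. Some genes outside that rule followed the names closely. Foxa1 averaged 429 CPM (counts of a gene scaled to a common total of UMIs per class) in hormone-responsive-like cells. It averaged 6.02 CPM in luminal progenitor-like and 5.85 CPM in basal-like cells. Ehf averaged 30.8, 410.3 and 23.2 CPM in the same order, and Trp63 averaged 5.90, 4.49 and 185 CPM. Cldn7, listed as a luminal progenitor marker, averaged 297 CPM in hormone-responsive-like, 286 CPM in luminal progenitor-like and 21.6 CPM in basal-like cells. Lcn2, also listed for luminal progenitors, averaged 140, 2531 and 1239 CPM in that order, so basal-like cells held much of it too. Tnfsf11, listed as a hormone-responsive marker, was uneven in that class, at 6.06, 125 and 7.81 CPM in libraries 1, 2 and 3. The names end in -like because they rest on these genes and on no annotation by the authors. Median depth per cell was 3338 to 3840 UMIs in hormone-responsive-like cells, 2858 to 3785 in luminal progenitor-like cells and 1770 to 2208 in basal-like cells, and pairs of libraries shared 77 to 146 barcode sequences. Sets of 3 values below are those of libraries 1, 2 and 3 in that order.

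Class I molecules display peptides made inside the cell to CD8 T cells. Proteins are cut by the proteasome, in which the inducible subunits Psmb8 and Psmb9 can replace their constitutive counterparts; the Tap1 and Tap2 transporter moves the peptides into the endoplasmic reticulum, and there they are loaded onto a heavy chain (H2-K1 or H2-D1) paired with beta-2 microglobulin (B2m). Class II molecules (the alpha chain H2-Aa and beta chain H2-Ab1, chaperoned by the invariant chain Cd74) display peptides from taken-up material to CD4 T cells; they are best known from dendritic cells, macrophages and B cells, and interferon-gamma can induce them in epithelial cells, along with the class I route.

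The genes lie in few places of the genome. On mouse build GRCm38.p6 in RefSeq, 8 of the 10 are on chromosome 17, in the MHC: Psmb9 (34182030-34187330), Tap1 (34187556-34197225), Psmb8 (34198195-34201454) and Tap2 (34204479-34216321) follow each other, with H2-Ab1 (34263227-34269418) and H2-Aa (34282744-34287823) on one side, H2-K1 (33996012-34000619) on the other, and H2-D1 (35263094-35267497) further away. B2m is on chromosome 2 (122147687-122153082), and Cd74 is on another chromosome. RefSeq promoter windows (250 bases before to 50 after an annotated start) were at hand for 7 of the 10 genes and not for Tap2, H2-Ab1 and Cd74. For H2-K1 the annotated start used lies inside the gene span given above, so its printed stretch falls within that span. The printed stretches of B2m, H2-D1 and H2-Aa lie upstream of theirs. Those of the class I chains, B2m and the class II chain H2-Aa are shown because they share an arrangement of letters that is rare among promoters. The letters TGACG are followed by ATTGG, which is CCAAT read on the opposite strand. Both are in capitals, as is a match to GAAA-NN-GAAA (a strict pattern for the interferon-stimulated response element) in B2m.
B2m, chr2:122147539-122147648, plus strand: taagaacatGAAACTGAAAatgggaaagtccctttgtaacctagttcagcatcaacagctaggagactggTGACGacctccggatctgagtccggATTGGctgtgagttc
H2-K1, chr17:34000349-34000458, minus strand: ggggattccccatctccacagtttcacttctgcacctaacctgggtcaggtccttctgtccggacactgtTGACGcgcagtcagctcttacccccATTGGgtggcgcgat
H2-D1, chr17:35262923-35263032, plus strand: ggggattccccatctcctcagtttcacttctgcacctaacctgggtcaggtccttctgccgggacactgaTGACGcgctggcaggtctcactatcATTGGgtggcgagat
H2-Aa, chr17:34287857-34287967, minus strand: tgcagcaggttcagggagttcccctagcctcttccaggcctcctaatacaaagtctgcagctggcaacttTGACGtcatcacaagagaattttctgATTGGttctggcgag

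Between the pair of blocks lie 20 bases in B2m, H2-K1 and H2-D1 and 21 in H2-Aa. The arrangement, with 18 to 22 bases between the blocks on the gene's strand, occurs in the windows of 45 of 27025 genes (0.167%), and in 80 (0.296%) when either strand is allowed; the spacing was chosen after the sequences were seen. Taken singly the letters are common, with TGACG or its complement in 23.05% of genes and CCAAT or its complement in 41.1%. GAAA-NN-GAAA was matched in 3.99% of genes and TTCNNNGAA (the gamma-activated sequence) in 9.55%, both strands counted. Among the 7 genes an exact match to the first was found in B2m alone and to the second in Psmb8 alone. Forms of these elements that differ from the exact letters were not searched for. A gene without a match, such as H2-K1 or H2-D1, can therefore still hold such an element. Tap1, Psmb8 and Psmb9 do not hold the spaced arrangement in these windows. Tap1 and Psmb9 point away from each other with 225 bases between their starts, so 1 stretch of sequence, shown because it spans the gap between them, serves as the upstream window of 2 members. Capitals mark CCAAT and TGACG.
Tap1, chr17:34187306-34187605, plus strand: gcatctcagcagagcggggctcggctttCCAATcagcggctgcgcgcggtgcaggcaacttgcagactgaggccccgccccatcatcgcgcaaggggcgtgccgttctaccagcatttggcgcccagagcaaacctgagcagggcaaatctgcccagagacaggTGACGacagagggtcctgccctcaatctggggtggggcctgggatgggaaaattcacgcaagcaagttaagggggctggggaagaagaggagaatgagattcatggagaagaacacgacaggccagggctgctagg

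These letters are matches in the reference strain. FVB/NJ carries the q haplotype of the MHC, whereas mm10 is the genome of C57BL/6J, which carries the b haplotype, and class I heavy chains are near-identical copies of one another. Reads of H2-K1, H2-D1 and the other heavy chains can therefore have been divided among these genes or lost in ways the deposited counts do not show, and their values are uncertain on that account. B2m, the transporter and the proteasome subunits are not part of that family. H2-Aa, H2-Ab1, Tap1, Tap2, Psmb8 and Psmb9 also lie in the MHC, however, so the difference of haplotype applies to them too. How well their reads mapped was not tested, and the low class II counts below carry that limit.

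Hormone-responsive-like cells carried the class I route at an even level across the libraries. B2m stood at 1622, 1515 and 1733 CPM in hormone-responsive-like cells, at 476, 906 and 1830.0 CPM in the luminal progenitor-like class and at 592, 810.0 and 823 CPM in basal-like cells. The hormone-responsive-like values lay above all 3 basal-like values, and the luminal progenitor-like values ran from below the lowest basal-like value to above the highest hormone-responsive-like one. H2-D1 showed 2316, 1819.8 and 2272 CPM in hormone-responsive-like cells, 796, 1122 and 1901 CPM in the luminal progenitor-like class and 967, 1017 and 1119 CPM in basal-like cells. H2-K1 showed 1122, 935 and 1254 CPM, 507, 1085 and 1853 CPM, and 559, 695 and 694 CPM in the same classes. For both heavy chains the hormone-responsive-like values did not overlap the basal-like ones, and the luminal progenitor-like values overlapped both. How many of all genes separate these classes without overlap was not counted.

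The proteasome subunits and Tap2 separated the classes more widely. Psmb8 was at 390.0, 350.5 and 390.0 CPM in hormone-responsive-like cells, 88.4, 195 and 276 CPM in the luminal progenitor-like class and 43.9, 69 and 68.5 CPM in basal-like cells. Psmb9 was at 130.2, 122 and 145 CPM, 25.4, 66.1 and 131 CPM, and 7.93, 19.6 and 17 CPM. Tap2 reached 275, 282 and 254 CPM in hormone-responsive-like cells, 74.1, 113 and 148 CPM in the luminal progenitor-like class and 35.7, 52.3 and 53.4 CPM in basal-like cells. For Psmb8 and Tap2 no value of any class overlapped that of another, in the order hormone-responsive-like, luminal progenitor-like, basal-like. The share of all genes that separate the 3 classes in this way was not counted. For Psmb9 1 luminal progenitor-like value, that of library 3, fell within the hormone-responsive-like range. Tap1, the partner of Tap2 in the transporter, was at 35.6, 40.4 and 42.4 CPM in hormone-responsive-like cells. It was at 20.7, 38.7 and 106 CPM in the luminal progenitor-like class and at 13.0, 25.4 and 28.9 CPM in basal-like cells. Within libraries 1 and 2 Tap1 followed the same order of classes as Tap2, while in library 3 the luminal progenitor-like class was highest. Its highest value by far was that of luminal progenitor-like cells in library 3.

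**Figure D1:**
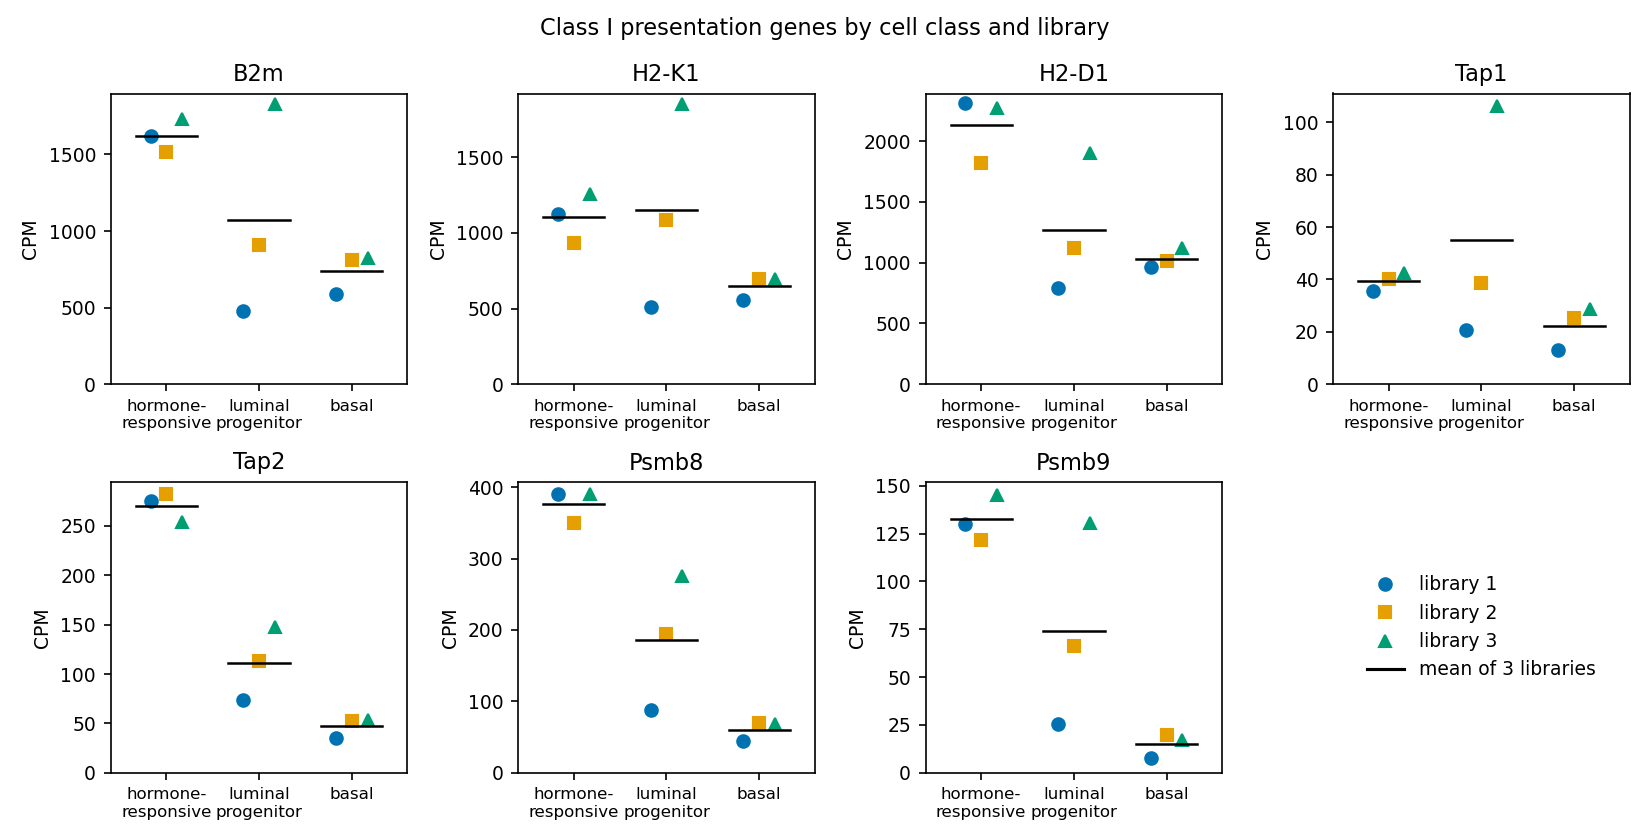
Level of the 7 class I genes in CPM (y axes, linear from 0, 1 scale per panel) in each cell class (x axes); each point is 1 library and the black line the mean of 3. Hormone-responsive-like values of Psmb8 (350.5 to 390.0 CPM) and Tap2 (254 to 282 CPM) stand above all others, while luminal progenitor-like cells spread widely, with library 3 highest in every panel of that class.

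Compared with luminal progenitor-like cells, hormone-responsive-like cells had more Tap2 and Psmb8. The log2 fold change, hormone-responsive-like over luminal progenitor-like, was 1.19 for Tap2 (SD of the 3 within-library log2 ratios 0.58, n = 3; edgeR quasi-likelihood test with Benjamini-Hochberg adjustment over 12647 genes, adjusted p = 0.00111) and 1.01 for Psmb8 (SD 0.88, adjusted p = 0.0162). A gene was called at an adjusted p below 0.05 and a log2 fold change of at least 1 in size. By that rule 2 of the 10 members were higher in hormone-responsive-like cells, 0 were lower and 8 were not called; of all genes tested 10.3% were called higher and 13.7% lower (24% in either direction), and a count of 2 in 10 is close to that background. All 10 members passed the filter on low counts. H2-D1 had an adjusted p of 0.0397 with a log2 fold change of 0.68, under the size asked for. Not called were B2m (0.63, adjusted p = 0.131), Psmb9 (0.92, adjusted p = 0.0703), H2-K1 (-0.06, adjusted p = 0.895) and Tap1 (-0.43, adjusted p = 0.357). The 7 class I genes had a median log2 fold change of 0.68, against -0.048 over all genes tested.

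The difference between these luminal classes was not the same size in each library. Within-library log2 ratios, which carry the same normalisation as the fit, were 1.65, 0.65 and -0.25 for B2m, 2.22, 0.79 and -0.02 for Psmb9, 2.02, 0.76 and 0.33 for Psmb8, and 1.77, 1.23 and 0.61 for Tap2. For these 4 genes the ratio was highest in library 1 and lowest in library 3. The calls of Tap2 and Psmb8 moved with the libraries used: without library 1 the log2 fold changes were 0.91 and 0.53, and without library 2 the adjusted p of Psmb8 was 0.061. Without library 3, B2m, H2-D1 and Psmb9 were called higher as well, with log2 fold changes of 1.14, 1.01 and 1.52, and the count of members called higher was 5. With 1 library of each kind, an effect of class that depends on the library has no replicate and was not tested.

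Against basal-like cells the class I differences were larger and steadier. Psmb9 was higher in hormone-responsive-like than in basal-like cells by a log2 fold change of 3.14 (SD 0.63, n = 3 libraries; edgeR, adjusted p = 0.000195), Psmb8 by 2.61 (SD 0.36, adjusted p = 7.4e-05), Tap2 by 2.46 (SD 0.31, adjusted p = 1.26e-05) and B2m by 1.07 (SD 0.22, adjusted p = 0.0146). That made 4 of 10 members higher, with 14.8% of all genes called higher, and 2 lower (both class II, below), with 20.5% called lower (35.3% in either direction); the count of 2 lower is at the background. H2-D1 had a log2 fold change of 0.96 (adjusted p = 0.00587), just under the size asked for, and was called without library 2 (1.04, adjusted p = 0.0349). H2-K1 (0.68, adjusted p = 0.081) and Tap1 (0.75, adjusted p = 0.110) were not called. All 7 class I genes had a positive ratio in each of the 3 libraries, and the share of all genes with that pattern was not counted. Their median log2 fold change was 1.07, against 0.011 over all genes. The call of B2m did not hold without library 1 (0.87) or library 2 (1.18, adjusted p = 0.0551); those of Tap2, Psmb8 and Psmb9 held without any one library.

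Tap1 and Psmb9, whose starts lie 225 bases apart, had ratios of different size. The within-library log2 ratios of hormone-responsive-like over basal-like cells were 1.27, 0.63 and 0.48 for Tap1 and 3.83, 2.59 and 3.00 for Psmb9, so the sets do not overlap. Over luminal progenitor-like cells they were 0.65, -0.03 and -1.49 for Tap1 and 2.22, 0.79 and -0.02 for Psmb9. In each library and in both contrasts the ratio of Psmb9 was the higher of the pair. The difference between the genes was not tested.

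Luminal progenitor-like cells also had more of the proteasome subunits and of the transporter than basal-like cells. The log2 fold change, luminal progenitor-like over basal-like, was 2.22 for Psmb9 (SD 0.77, n = 3; edgeR, adjusted p = 0.00135), 1.60 for Psmb8 (SD 0.57, adjusted p = 0.00122), 1.27 for Tap2 (SD 0.29, adjusted p = 0.000585) and 1.18 for Tap1 (SD 0.77, adjusted p = 0.0169). These 4 of 10 members were called higher, with 13.4% of all genes, and 0 were lower, with 17% of all genes (30.4% in either direction). B2m (0.44, adjusted p = 0.251), H2-D1 (0.28, adjusted p = 0.314) and H2-K1 (0.74, adjusted p = 0.0654) were not called, and in library 1 their ratios were negative (-0.35, -0.32 and -0.18) while in library 3 they were 1.26, 0.87 and 1.52. Without library 3 the log2 fold change of Tap1 was 0.63 (adjusted p = 0.0792), and those of B2m and H2-D1 were -0.044 each; without library 1, H2-K1 was called higher (1.05, adjusted p = 0.000156). The calls of Psmb8, Psmb9 and Tap2 held without any one library. The class I median was 1.18, against 0.081 over all genes.

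**Figure D2:**
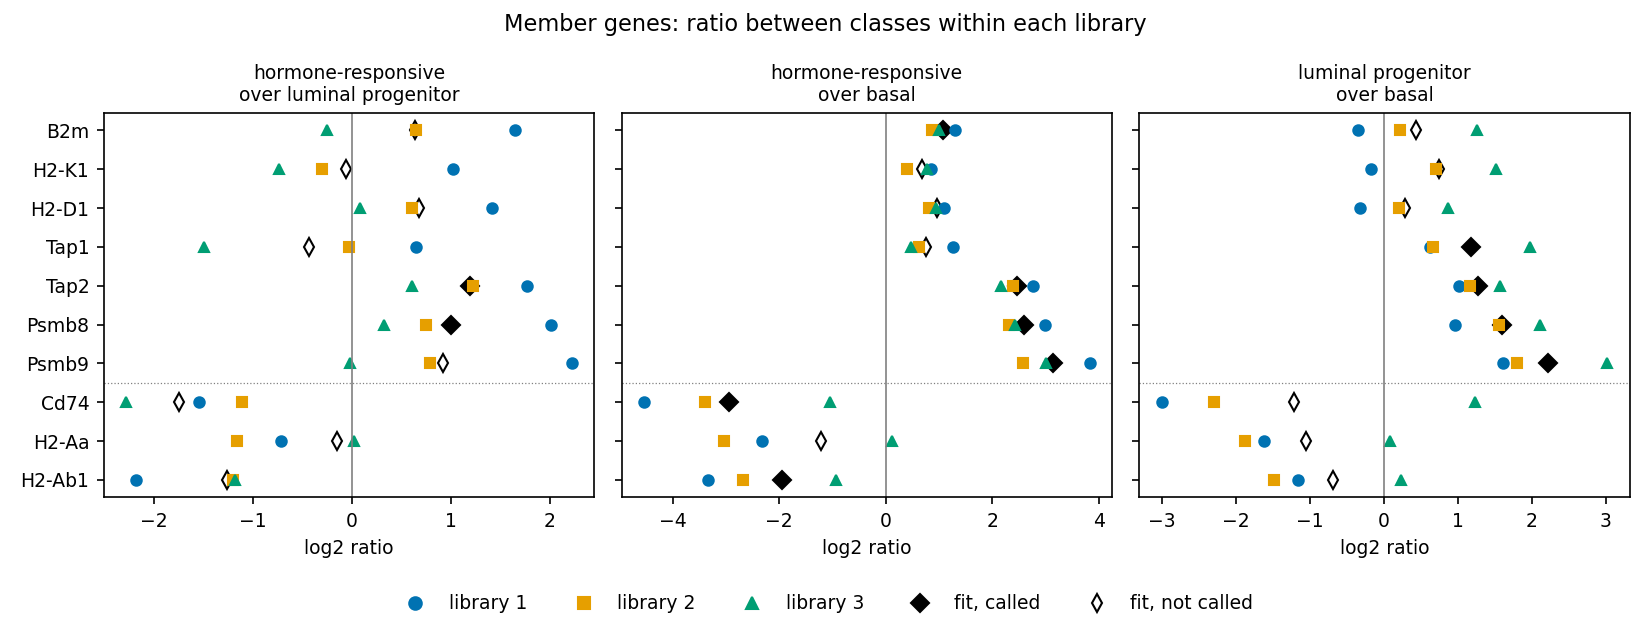
Log2 ratio between classes (x axes) for the 10 genes (rows, class I above the dotted line), with 1 coloured point per library and a diamond for the fitted log2 fold change, filled where called. In hormone-responsive-like over basal-like cells the ratios of Psmb8, Psmb9 and Tap2 are 2.17 or more in every library, while those of Cd74 and H2-Ab1 lie left of 0; the class I points of luminal progenitor-like over basal-like cells fan out by library.

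For the class I genes, luminal progenitor-like cells differed from library to library. Across the 3 libraries the log2 range (highest over lowest CPM) of the 7 class I genes was 1.00 (Tap2) to 2.36 (Tap1 and Psmb9) in that class, and library 3 was highest for all 7. Among 6183 genes of at least 20 CPM in the class the median range was 0.418 and the 90th percentile 1.02; for Psmb9 1.16% of those genes had a larger range and for B2m 2.12%. Hormone-responsive-like cells of the same libraries had class I ranges of 0.15 to 0.42, against a median of 0.405 over 6275 genes, and basal-like cells, without Psmb9, which was under 20 CPM, had 0.21 to 1.14, against 0.391 over 6166 genes. The labels give no difference between the libraries, so no contrast between them was tested.

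At equal depth the same picture held cell by cell. When every cell with at least 1500 UMIs was thinned to 1500, the 7 class I genes together gave a mean of 8.50, 7.41 and 9.07 UMIs per hormone-responsive-like cell, 2.96, 5.01 and 9.21 per luminal progenitor-like cell and 3.38, 3.92 and 4.24 per basal-like cell. Thinning left out 20, 76 and 96 hormone-responsive-like cells, 342, 111 and 211 luminal progenitor-like cells and 285, 649 and 1335 basal-like cells. The variance over cells divided by the mean was 2.57, 2.52 and 2.83, then 1.78, 2.79 and 6.26, then 1.69, 2.01 and 2.22 in these classes. Luminal progenitor-like cells of library 3 thus had a mean near that of hormone-responsive-like cells but were far more uneven, with a median of 7 UMIs and 5th and 95th percentiles of 1 and 25, against 8, 3 and 18 in hormone-responsive-like cells of that library. At least 20 class I UMIs were found in 362 of 3090 luminal progenitor-like cells (11.7%) of library 3, in 9 of 1540 (0.584%) of library 2 and in 1 of 2897 (0.0345%) of library 1. The line at 20 cuts a continuous range, and 207 luminal progenitor-like cells of library 3 lay at 18 to 21.

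**Figure D3:**
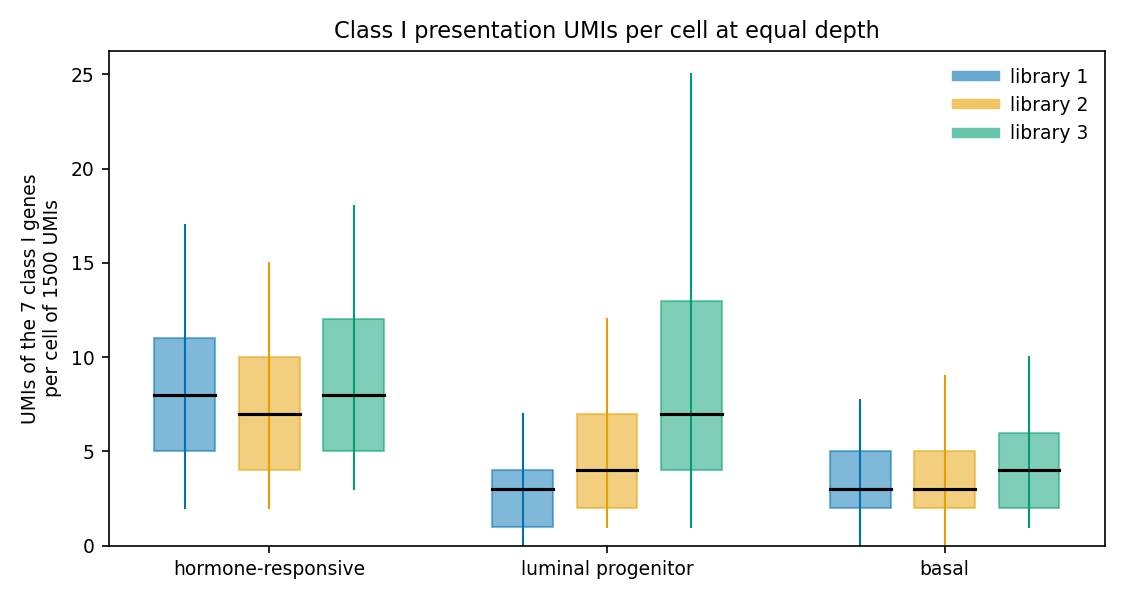
UMIs of the 7 class I genes per cell thinned to 1500 UMIs (y axis) by class (x axis) and library (colour); the box spans the 25th to 75th percentile, the black line is the median and the thin line the 5th to 95th percentile over cells. Luminal progenitor-like cells of library 3 reach 25 at the 95th percentile, against 7 in library 1 and 12 in library 2.

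Within luminal progenitor-like cells of library 3, cells with more class I UMIs also held more UMIs of Igtp, Gbp2, Isg15 and the class II genes. The interferon-induced GTPase Igtp was at 9.02, 21.3, 126 and 315 CPM in cells with 0 to 4, 5 to 9, 10 to 19 and 20 or more class I UMIs (1035, 941, 752 and 362 cells). Gbp2, another interferon-induced GTPase, was at 22.5, 47.5, 185 and 405 CPM over the same steps, and Isg15, a ubiquitin-like protein induced by interferon, at 23.2, 42.5, 123 and 271 CPM. Each of the 3 was higher at every step; they were chosen after their values were seen and do not stand for the list of interferon-induced genes. A class II UMI was present in 1.26%, 3.08%, 6.78% and 21.8% of the cells at these steps, and Cd74 stood at 5.15, 16.3, 43.4 and 206 CPM. The milk protein gene Csn2 was at 3259, 4001, 7611 and 9855 CPM, and the median UMI sum of the 4 luminal progenitor rule genes was 6, 7, 10 and 12, while the medians of the hormone-responsive and basal sums were 0 at every step. Summed UMIs of 8 immune markers were 6, 6, 1 and 1.

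Hormone-responsive-like cells with as many class I UMIs did not show Igtp or class II genes at such levels. In library 3, 49 of them had 20 or more class I UMIs, and in these cells Igtp had 0 UMIs and the class II genes 0. A count of 0 there allows up to 40.8 CPM (3 counts), against 315 CPM of Igtp and 206 CPM of Cd74 in luminal progenitor-like cells of the top step. Gbp2 and Isg15 were highest at the top step in hormone-responsive-like cells of library 3 too, at lower levels. Over the same steps Gbp2 was at 35.3, 21.6, 45.9 and 95.2 CPM (7 UMIs at the top). Isg15 was at 16.0, 24.3, 36.0 and 54.4 CPM (4 UMIs at the top). In luminal progenitor-like cells of library 1, Igtp and Gbp2 rose over the lower 3 steps, while Isg15 and class II UMIs did not rise at each. In library 2 none of these rose at each step (the top step held 1 and 9 cells in libraries 1 and 2). In library 2 (850, 505 and 176 cells) Isg15 was at 12.5, 7.92 and 3.79 CPM, Igtp at 3.14, 1.32 and 15.2 CPM and Gbp2 at 13.3, 11.9 and 68.2 CPM, and 1.29%, 0.990% and 2.84% of cells had a class II UMI. In library 1 (2335, 513 and 48 cells) Igtp was at 7.42, 10.4 and 41.7 CPM and Gbp2 at 6.85, 11.7 and 27.8 CPM. The last of these steps held only 3 and 2 UMIs of these 2 genes. Isg15 was at 6.0, 14.3 and 13.9 CPM there, and 0.428%, 0.780% and 0% of cells had a class II UMI. Class II UMIs were also more frequent in basal-like cells with more class I UMIs in library 2, at 3.87%, 8.30% and 14.0% of 2740, 1205 and 186 cells (29.7, 73.6 and 147 CPM of the 3 class II genes). Basal-like cells of library 3 had shares of 2.77%, 4.24% and 3.73% over those steps, and 3 of only 6 cells at the top. In library 1 the shares were 2.63%, 3.77% and 0% of 949, 318 and 19 basal-like cells. In each library, luminal progenitor-like cells with at least 2 Csn2 UMIs had more class I UMIs on average than those with 0. The means were 4.76 against 2.91 in library 1, 5.65 against 3.97 in library 2 and 11.1 against 7.80 in library 3. Cells with at least 2 Csn2 UMIs numbered 63, 909 and 1356, and those with 0 numbered 2799, 478 and 1396. The libraries thus differed widely in Csn2, and its part in the class I levels was not tested. Cells of 1 library are not replicates, and these values are given without a test.

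**Figure D4:**
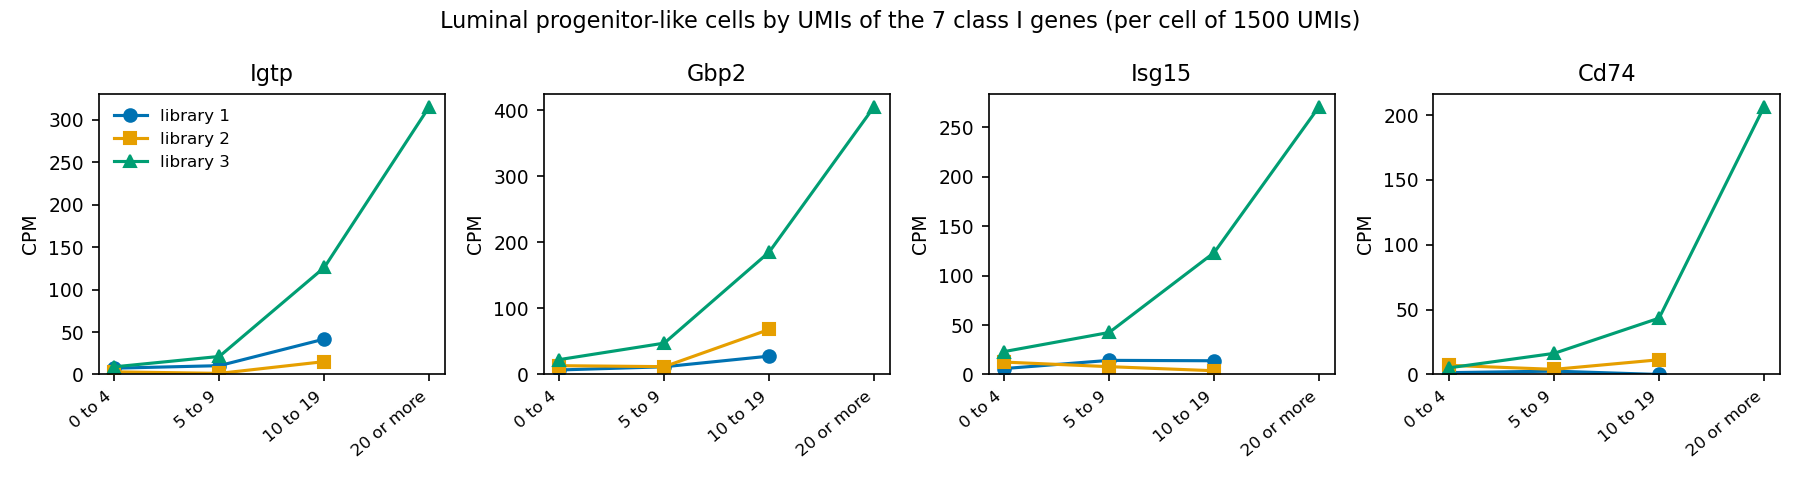
Level in CPM (y axes, linear from 0) of 3 interferon-induced genes and Cd74 in luminal progenitor-like cells divided by their class I UMIs at 1500 UMIs per cell (x axes); lines are libraries, and steps with under 20 cells are not drawn. In library 3 (triangles) all 4 genes climb with class I UMIs, for example Igtp to 315 CPM and Cd74 to 206 CPM at 20 or more.

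Class II UMIs were rare in all epithelial classes. Cd74 was found at 0.757, 3.72 and 10.4 CPM in hormone-responsive-like cells (1, 14 and 44 UMIs), at 2.58, 7.88 and 45.9 CPM in the luminal progenitor-like class (28, 52 and 562 UMIs) and at 22.1, 41.3 and 20.9 CPM in basal-like cells (78, 494 and 183 UMIs). Basal-like cells were highest in libraries 1 and 2, and luminal progenitor-like cells in library 3. H2-Ab1 was at 0, 0.531 and 3.79 CPM in hormone-responsive-like cells, 1.01, 1.52 and 7.93 CPM in the luminal progenitor-like class and 2.55, 4.94 and 7.19 CPM in basal-like cells. H2-Aa was at 0, 0.266 and 5.45 CPM, 0.184, 0.910 and 4.74 CPM, and 1.13, 4.27 and 4.79 CPM. The 0 values of hormone-responsive-like cells in library 1 allow up to 2.27 CPM (3 counts of the class total), which covers the H2-Aa level of basal-like cells there. All counting intervals and limits cover counting error only.

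**Figure D5:**
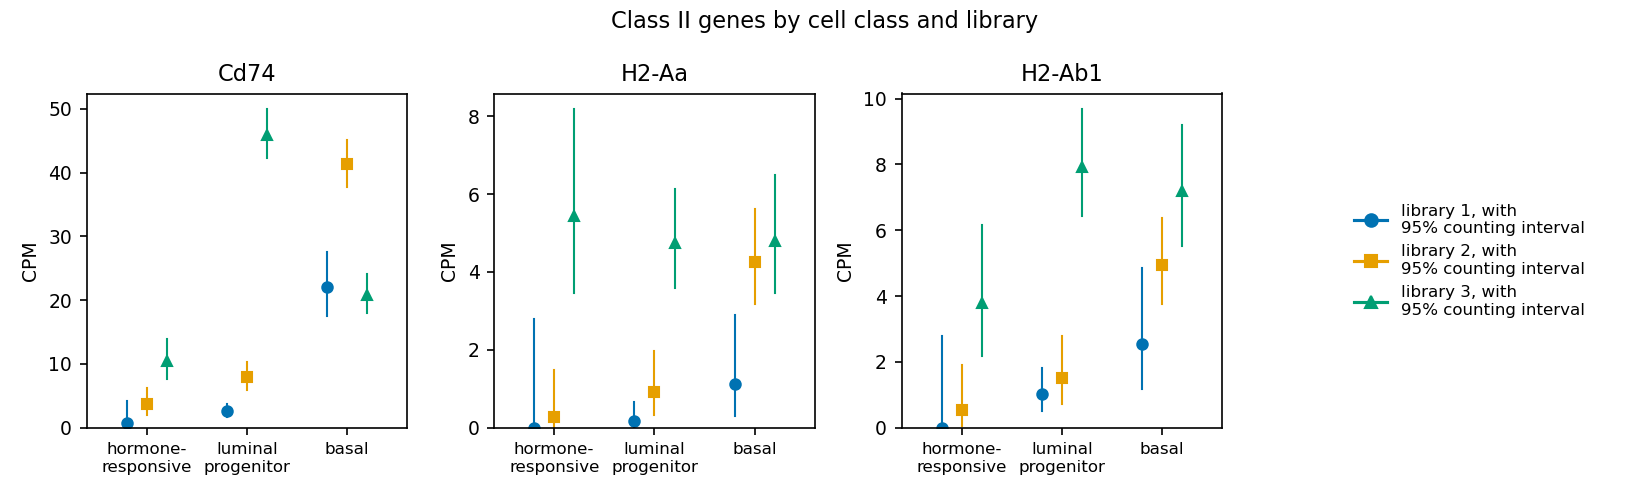
Level of the 3 class II genes in CPM (y axes, linear from 0) by class (x axes) and library, with exact 95% Poisson intervals for counting error. Cd74 is highest in basal-like cells in libraries 1 and 2 (22.1 and 41.3 CPM) and in luminal progenitor-like cells in library 3 (45.9 CPM).

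Against basal-like cells, hormone-responsive-like cells had less Cd74 and H2-Ab1. The log2 fold changes were -2.95 for Cd74 (SD of ratios 1.78, n = 3; edgeR, adjusted p = 0.0184) and -1.96 for H2-Ab1 (SD 1.24, adjusted p = 0.0165), while H2-Aa (-1.21, adjusted p = 0.174) was not called. Within libraries the ratio of Cd74 was -4.54, -3.40 and -1.05, and that of H2-Ab1 was -3.33, -2.68 and -0.94, so each was negative in all 3 libraries and smallest in library 3; without that library the fitted values were -3.83 and -3.46. Neither call held without library 2 (adjusted p = 0.111 for Cd74 and 0.125 for H2-Ab1) or without the library term in the fit (adjusted p = 0.0769 and 0.223). In the other comparisons no class II gene was called: over luminal progenitor-like cells the hormone-responsive-like values were -1.74 (Cd74, adjusted p = 0.135), -1.26 (H2-Ab1, adjusted p = 0.108) and -0.15 (H2-Aa, adjusted p = 0.893), and luminal progenitor-like over basal-like values were -1.21 (adjusted p = 0.175), -0.69 (adjusted p = 0.207) and -1.06 (adjusted p = 0.172). Cd74 of luminal progenitor-like over basal-like cells was -3.00, -2.29 and 1.23 in the 3 libraries, and without library 3 it was called lower (-2.69, adjusted p = 0.000553). Without library 1, Cd74 was called lower in hormone-responsive-like than in luminal progenitor-like cells (-2.06, adjusted p = 0.0477).

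In thinned cells a class II UMI was present in 0% (0 of 337 cells, which allows up to 0.89%), 0.650% and 1.04% of hormone-responsive-like cells, 0.483%, 1.36% and 5.57% of luminal progenitor-like cells and 2.87%, 5.61% and 3.39% of basal-like cells. Without thinning the shares were 0.280%, 1.40% and 1.99%, then 1.11%, 3.09% and 9.57%, then 4.07%, 8.64% and 4.65%. The 5.57% of luminal progenitor-like cells in library 3 had an exact binomial interval of 4.78 to 6.43, and the 0.483% in library 1 one of 0.264 to 0.809; the intervals cover counting error over cells of 1 library and do not compare libraries. Free RNA in the droplets can place a UMI in a cell that does not express the gene; no class is sure to lack these genes, and how much free RNA contributed was not tested.

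A few barcodes held a large part of the class II UMIs in luminal progenitor-like cells of library 3. Barcodes with at least 5 class II UMIs numbered 31 of 3301 in that class and held 298 of its 717 class II UMIs (41.6%); libraries 1 and 2 had 0 and 1 such barcodes. Of the 31, 26 had UMIs of at least 2 of the 3 class II genes, 29 had no UMI of any of 8 immune markers, 1 had a Ptprc UMI and 0 were immune-marked, that is, had UMIs of at least 3 immune markers. Their median depth was 4567 UMIs, against 3366 for the class. Hormone-responsive-like cells had 0, 0 and 3 such barcodes, with 58 of the 83 class II UMIs of library 3 in those 3, of which 1 was immune-marked and 2 carried at least 3 markers of some other cell type, immune included. Among basal-like cells there were 1, 14 and 4, which held 16.5%, 13.2% and 17.4% of the class II UMIs, so most basal-like class II UMIs came from barcodes with few each; 1 of the 4 in library 3 was immune-marked.

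Markers of other cells stood beside these values. Immune markers, whose cells the sort was meant to remove, summed to 0.757 to 4.74 CPM in hormone-responsive-like cells, 1.2 to 3.49 CPM in the luminal progenitor-like class and 3.40 to 6.27 CPM in basal-like cells, with Ptprc (CD45) at 0 to 1, 0 to 3 and 0 to 4 UMIs per library. In luminal progenitor-like cells the sum was 3.11 CPM in library 3 and 3.49 CPM in library 2, while Cd74 was at 45.9 and 7.88 CPM. Fibroblast markers ranged from 159 to 183 CPM in hormone-responsive-like cells, 17.9 to 47.1 CPM in the luminal progenitor-like class and 98.3 to 330 CPM in basal-like cells, and their part in the results was not tested. Leaving out barcodes with at least 3 markers of another cell type changed no call of a member. The 20 immune-marked barcodes, over all libraries, had Cd74 at 3414 CPM (interval 2956 to 3923), H2-Aa at 1304 and H2-Ab1 at 652 CPM, and 92 endothelial-marked barcodes had B2m at 3352, H2-D1 at 4033 and Cd74 at 255 CPM. These pooled values have no replicates.

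Among the other genes of the pathway, most of the immunoproteasome group were also higher in hormone-responsive-like than in basal-like cells. Of 5 genes (Psmb10, the activator subunits Psme1, Psme2 and Psme3, and the assembly factor Pomp), 4 were higher, 0 lower and 1 not called. Over all genes 14.8% were called higher and 20.5% lower in that comparison. Psme2 averaged 323 ± 50.3 CPM in hormone-responsive-like cells, 143 ± 50.4 CPM in the luminal progenitor-like class and 81.8 ± 20.7 CPM in basal-like cells (SD, n = 3), a log2 fold change of 1.91 over basal-like cells (edgeR, adjusted p = 1.76e-05) and 1.09 over luminal progenitor-like cells (adjusted p = 0.000697; 0.90 without library 1). Psmb10, the third inducible catalytic subunit, averaged 93.3 ± 10.1, 63.0 ± 21.1 and 26.4 ± 6.40 CPM, with log2 fold changes over basal-like cells of 1.71 in hormone-responsive-like (adjusted p = 0.000236) and 1.27 in luminal progenitor-like cells (adjusted p = 0.0013; 0.92 without library 3). Psme1 and Pomp were higher in hormone-responsive-like than in basal-like cells by 1.27 and 1.09 (adjusted p = 4.14e-05 and 4.18e-05). The constitutive subunits were mostly not called: of 14, Psmb5 (1.2, adjusted p = 4.94e-05) and Psmb3 (1.11, adjusted p = 9.45e-05; 0.99 without library 3) were higher in hormone-responsive-like than in basal-like cells and 0 were lower. The medians of these lists were 1.27 and 0.70, against 0.011 over all genes tested.

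Genes of peptide loading and trimming were mostly not called, with 1 of 10 called in any comparison. Of all genes, 24%, 35.3% and 30.4% were called in either direction, in the order of comparisons given at the end of this paragraph. Sec61b, a channel subunit of the endoplasmic reticulum, was higher in hormone-responsive-like than in basal-like cells (1.04, adjusted p = 0.000204; 0.95 without library 2). Tapbp, which bridges the transporter and the heavy chain, averaged 268, 213 and 138 CPM in hormone-responsive-like, luminal progenitor-like and basal-like cells, with log2 fold changes over basal-like cells of 0.85 and 0.62 that were under the size asked for. The list's median log2 fold change was 0.14, 0.06 and -0.07 in hormone-responsive-like over luminal progenitor-like, hormone-responsive-like over basal-like and luminal progenitor-like over basal-like cells.

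Among 12 tested heavy chains and class I-like genes outside the members, 3 were higher and 0 lower in hormone-responsive-like than in luminal progenitor-like cells, 1 and 0 in hormone-responsive-like than in basal-like cells, and 5 and 2 in luminal progenitor-like than in basal-like cells. Over all genes 10.3% and 13.7%, 14.8% and 20.5%, and 13.4% and 17% were called higher and lower in these comparisons. The count of 3 was 2, 1 and 2 without library 1, 2 and 3, and the count of 5 was 5, 4 and 2. H2-Q2, a non-classical heavy chain in the family whose reads may be divided, averaged 25 ± 5.6 CPM in hormone-responsive-like cells, 11.3 ± 3.75 CPM in the luminal progenitor-like class and 1.07 ± 0.267 CPM in basal-like cells, and was higher over basal-like cells by 4.32 (adjusted p = 1.44e-06) and 3.3 (adjusted p = 5.9e-06); its call over luminal progenitor-like cells (1.01, adjusted p = 0.00181) was lost without library 1 (0.97) or library 2 (0.91). Fcgrt, the class I-like receptor for IgG, was lower in luminal progenitor-like cells than in either other class, at 58.7, 15.0 and 49.3 CPM: its log2 fold change was 1.81 in hormone-responsive-like over luminal progenitor-like cells (adjusted p = 0.000269) and -1.64 in luminal progenitor-like over basal-like cells (adjusted p = 0.000265). H2-M3, which presents formylated peptides, was lower in luminal progenitor-like than in basal-like cells (-1.73, adjusted p = 0.00612), and Hfe, known from iron uptake, was higher in luminal progenitor-like than in basal-like cells by 1.53 (adjusted p = 0.00333).

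The genes named here from the rest of the class II route differed in which class was highest. H2-DMa, a chain of the peptide exchanger, was higher in hormone-responsive-like cells, with 7.57, 13.3 and 18.2 CPM, against 1.29, 1.82 and 4.50 CPM in luminal progenitor-like and 2.83, 3.60 and 3.42 CPM in basal-like cells; the log2 fold changes were 2.24 (adjusted p = 0.000667) and 1.92 (adjusted p = 0.00103). H2-Oa, a chain of the inhibitor of that exchanger, was highest in luminal progenitor-like cells, with 0, 0.531 and 0.710 CPM in hormone-responsive-like cells, 8.29, 5.31 and 12.6 CPM in the luminal progenitor-like class and 0.566, 0.502 and 0.799 CPM in basal-like cells; it was higher in luminal progenitor-like than in basal-like cells by 3.79 (adjusted p = 2.3e-05). Cathepsin L (Ctsl), a lysosomal protease, was lower than in basal-like cells in hormone-responsive-like (-2.50, adjusted p = 1.13e-05) and luminal progenitor-like cells (-1.70, adjusted p = 9.84e-05). Legumain (Lgmn), another lysosomal protease, was higher in hormone-responsive-like than in luminal progenitor-like cells by 1.25 (adjusted p = 0.00131). Of 7 tested genes, 2 were higher and 1 lower in hormone-responsive-like than in luminal progenitor-like cells, 3 and 1 than in basal-like cells, and 1 higher and 1 lower in luminal progenitor-like than in basal-like cells. Over all genes the shares called higher and lower were 10.3% and 13.7%, 14.8% and 20.5%, and 13.4% and 17%. Counts of 1 in 7 are close to that background.

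Among known regulators of these genes, Ciita and Nlrc5 had few UMIs, while the others named here were called in at least 1 comparison. Ciita, the master regulator of class II genes, had 0, 1 and 0 UMIs in hormone-responsive-like cells, 2, 2 and 5 in luminal progenitor-like cells and 1, 5 and 0 in basal-like cells, too few to test. Nlrc5, the class I counterpart of Ciita, was at 2.27, 1.33 and 4.74 CPM, 2.03, 1.67 and 8.83 CPM, and 6.80, 5.69 and 3.88 CPM in the 3 classes and was not called in any comparison. Irf1, a transcription factor induced by interferon-gamma, was lower in hormone-responsive-like cells, at 81.4 ± 31.6 CPM, than in basal-like cells, at 382 ± 59.7 CPM (-2.47, adjusted p = 0.00135); in luminal progenitor-like cells it was at 58.8, 221 and 507 CPM, and the call of hormone-responsive-like over luminal progenitor-like cells (-1.57, adjusted p = 0.0184) was lost when library 2 (adjusted p = 0.083) or library 3 (adjusted p = 0.0975) was left out. Nfkb1, a subunit of NF-kappaB, was lower in hormone-responsive-like than in basal-like cells (-1.79, adjusted p = 0.00386), and its call against luminal progenitor-like cells (-1.32, adjusted p = 0.0209) was lost when library 2 (adjusted p = 0.0549) or library 3 (adjusted p = 0.077) was left out. Nfyb, a subunit of the factor that binds CCAAT, was lower in luminal progenitor-like than in basal-like cells (-1.79, adjusted p = 0.000167). Irf8, best known from myeloid cells, was higher in hormone-responsive-like than in luminal progenitor-like cells (1.63, adjusted p = 0.00848), a call lost without library 2. Of 13 tested regulators, 1 was higher and 3 lower in hormone-responsive-like than in luminal progenitor-like cells, 0 and 3 than in basal-like cells, and 0 higher and 2 lower in luminal progenitor-like than in basal-like cells. The lower calls are near the shares over all genes (13.7%, 20.5% and 17%). They numbered 4, 1 and 1, then 3, 4 and 5, then 1, 1 and 4 without library 1, 2 and 3, and the higher count of 1 was 2, 0 and 1.

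Among 10 interferon receptor and Jak-Stat genes, Socs1, a feedback inhibitor of interferon signalling, was low in both luminal classes, at 2.27, 1.59 and 2.84 CPM in hormone-responsive-like cells and 1.47, 2.73 and 2.94 CPM in the luminal progenitor-like class, against 34.8, 53.0 and 51.3 CPM in basal-like cells. Its log2 fold changes over basal-like cells were -4.53 (adjusted p = 1.17e-06) and -4.24 (adjusted p = 5.22e-07). Ifngr1, a receptor chain for interferon-gamma, was lower in hormone-responsive-like than in luminal progenitor-like cells (-1.63, adjusted p = 0.00016). Stat2, a transcription factor of interferon signalling, was higher there (1.57, adjusted p = 0.00816), a call lost without library 2 (adjusted p = 0.0651). In this list 2 genes were higher and 2 lower in hormone-responsive-like than in luminal progenitor-like cells, and 1 and 1 than in basal-like cells. In luminal progenitor-like over basal-like cells 1 was higher and 1 lower. Over all genes 10.3% and 13.7%, 14.8% and 20.5%, and 13.4% and 17% were called higher and lower in these comparisons. Counts of 1 or 2 in 10 are close to that background.

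Interferon-induced genes, the longest list, were called in both directions between the luminal classes. With all 3 libraries those counts were close to the shares over all genes given below. Of 26 tested, 12 were higher and 2 lower in luminal progenitor-like than in basal-like cells (6 and 2 without library 3), 8 and 2 in hormone-responsive-like than in basal-like cells, and 4 higher and 5 lower in hormone-responsive-like than in luminal progenitor-like cells; the last pair was 2 and 11 without library 1, 2 and 6 without library 2 and 6 and 3 without library 3. The 8 higher and 2 lower were 8 and 4 without library 1, 7 and 3 without library 2 and 8 and 2 without library 3. Over all genes 13.4% were called higher and 17% lower in luminal progenitor-like than in basal-like cells, 14.8% and 20.5% in hormone-responsive-like than in basal-like cells, and 10.3% and 13.7% in hormone-responsive-like than in luminal progenitor-like cells. Iigp1, an immunity-related GTPase, was highest in hormone-responsive-like cells, with 65.1, 126 and 110.1 CPM, against 6.45, 6.37 and 94.1 CPM in luminal progenitor-like and 1.13, 3.26 and 7.99 CPM in basal-like cells, a log2 fold change of 4.96 over basal-like cells (adjusted p = 0.000624); luminal progenitor-like cells of library 3 stood apart from those of the other libraries. Ifi44 was higher in luminal progenitor-like than in basal-like cells (4.41, adjusted p = 1.18e-05), with 46, 16 and 210 UMIs in luminal progenitor-like against 1, 1 and 7 in basal-like cells. Ifit2 had 1, 0 and 0 UMIs in hormone-responsive-like cells, against 72, 22 and 76 in luminal progenitor-like and 13, 85 and 36 in basal-like cells, and was called lower in both comparisons (adjusted p = 0.00174 and 0.00135); its fitted fold change depends on the prior count and is not given. The chemokine Cxcl10 was higher in luminal progenitor-like than in basal-like cells (2.35, adjusted p = 0.00157). Against the direction of most of the list, Ifitm3, a membrane protein that restricts viruses, was lower in both luminal classes than in basal-like cells (-1.85, adjusted p = 0.000131, and -3.47, adjusted p = 4.6e-06), and Ifitm1 was lower in luminal progenitor-like than in basal-like cells (-2.26, adjusted p = 0.00272). Ifi35 was higher in hormone-responsive-like cells than in luminal progenitor-like (1.15, adjusted p = 0.000194) and basal-like cells (1.85, adjusted p = 8.44e-06). Usp18, which removes Isg15 from proteins, was higher in hormone-responsive-like than in basal-like cells (4.12, adjusted p = 0.00524).

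Of 7 tested ligands that act beside the peptide on T cells, 2 were higher and 0 lower in hormone-responsive-like than in luminal progenitor-like cells, 1 and 4 than in basal-like cells, and 1 higher and 3 lower in luminal progenitor-like than in basal-like cells. In these comparisons 24%, 35.3% and 30.4% of all genes were called in either direction. Tnfsf9 (4-1BB ligand), a co-stimulatory ligand, was lower than in basal-like cells in hormone-responsive-like (-3.22, adjusted p = 9.04e-05) and luminal progenitor-like cells (-3.94, adjusted p = 1.59e-05), with means of 4.00, 2.57 and 43.4 CPM in the 3 classes. Vtcn1 (B7-H4), an inhibitory ligand, was higher in hormone-responsive-like (2.57, adjusted p = 0.000381) and luminal progenitor-like cells (1.38, adjusted p = 0.0101; adjusted p = 0.0736 without library 2) than in basal-like cells, at 46.6, 17.5 and 6.88 CPM. Its call over luminal progenitor-like cells (1.18, adjusted p = 0.0203) was lost without library 1 (0.67) or library 2 (adjusted p = 0.11). Lgals9 was lower in luminal progenitor-like cells (13.4 CPM) than in basal-like cells (64.8 CPM) by a log2 fold change of -2.28 (adjusted p = 7.02e-06). Icosl, the ligand of Icos, was lower than in basal-like cells in hormone-responsive-like (-2.19, adjusted p = 0.0202) and luminal progenitor-like cells (-2.1, adjusted p = 0.00888), and both calls were lost without library 3, the first without library 2 as well.

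Over the 9 sums of library and class, the genes whose log2 CPM was most like the mean of the 7 standardised class I genes, among 6504 genes of at least 20 CPM on average, were Parp10 (Pearson r = 0.98), Trim25 (0.94), Iigp1 (0.94), Mccc2 (0.93) and Adar (0.93). For the 3 class II genes they were Midn (0.91), Abca1 (0.90), Elp5 (0.90), Mafk (0.87) and Arl8b (0.87). The 9 sums share libraries and classes, so these values describe the sums and carry no p. Parp10 itself was at 27.3, 28.7 and 28.4 CPM in hormone-responsive-like cells, 14.7, 18.8 and 31.8 CPM in the luminal progenitor-like class and 10.2, 14.6 and 17.2 CPM in basal-like cells, with library 3 highest in luminal progenitor-like cells.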

How the data were processed

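The authors deposited raw UMI counts per gene and barcode for each of 3 libraries; the submitters' processing notes name Cell Ranger 2.1.0 and mm10. The sources used here do not give the annotation, cell calling or downsampling. No deposited column was left unused (0). Barcodes were filtered and classed as described, no doublet caller was run, and 952 kept barcodes reached 5 UMIs in more than 1 class sum. Counts were summed per library and class (9 sums) and compared with edgeR 4.0.16 in R 4.3.3: quasi-likelihood test, two-sided, TMM factors, filterByExpr, library as a block, Benjamini-Hochberg adjustment over 12647 genes; the 11 class-rule genes were not tested. Within-library ratios use TMM-scaled log2 CPM with a prior count of 2; levels use total counts. DESeq2 1.42.0 was an alternative. The script was tested on simulated data. Classes of 1 library come from 1 suspension, which pairs the sums by number: deviations from class means correlated at 0.343 to 0.583 within a library across genes, which are not independent replicates, and at -0.482 to 0.158 between libraries. For each gene these deviations sum to 0 over the libraries of a class. Positive correlations within a library therefore lower those between libraries. Library pairs of a class differed beyond sampling noise (chi-square per degree of freedom 5.38 to 94.9). The members and 121 further genes found in the tables, of 127 listed, were chosen with earlier results of these data known; further genes named are the 4 most changed called genes of each list and any called against its others; Tapbp, Ciita and Nlrc5 fall outside that rule and were chosen after their values were seen. Results of 1 list gene are not reported here.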

Additional observations from a re-analysis of the deposited data

How the results depend on the processing

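Results were recomputed under 12 alternatives. Of the member log2 fold changes under these settings, 314 kept their direction and side of the threshold, 19 lost the call, 13 gained one and 8 changed sign; the cause was not tested. Members called higher in hormone-responsive-like than in luminal progenitor-like cells numbered 1 in place of 2 without the replicate block, without a low-count filter, without a barcode filter, thinned to equal depth and without the deepest barcodes, and 0 to 5 when 1 library was left out; members called lower there numbered 1 in place of 0 with DESeq2, without a low-count filter and under the stricter class rule, and 0 to 1 with 1 library left out. Members called lower in hormone-responsive-like than in basal-like cells numbered 0 in place of 2 without the replicate block, 1 when thinned, and 0 to 2 with 1 library left out. In luminal progenitor-like over basal-like cells, members called lower numbered 1 in place of 0 with DESeq2 and without a low-count filter, and 0 to 1 with 1 library left out. Without the replicate block, calls were lost for B2m (1.05, adjusted p = 0.0557), Cd74 (-2.34) and H2-Ab1 (-1.55) in hormone-responsive-like over basal-like cells, Psmb8 (0.87) over luminal progenitor-like cells and Tap1 (1.36) in luminal progenitor-like over basal-like cells. Signs changed for H2-Aa in hormone-responsive-like over luminal progenitor-like cells without the block (0.043) and when 1 library was left out (-0.18 to 0.13), for H2-K1 (-0.53 to 0.34) and Tap1 (-0.88 to 0.28) there when 1 library was left out, for B2m (-0.044 to 0.70) and H2-D1 (-0.044 to 0.48) in luminal progenitor-like over basal-like cells when 1 library was left out, and for H2-Ab1 there when thinned (0.083); none of these was called in the main comparison. Counts of all genes called stayed within 1.5 times. Of 90 shares of barcodes, 74 moved without thinning. Depth limits the class II genes most, with 1 UMI in hormone-responsive-like cells of library 1.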
